A study of Rattus norvegicus with 16 samples.

Results

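Potassium channel genes were followed in newborn rat retina under cyclic hyperoxia, a model of oxygen-induced retinopathy. They were taken as all genes whose annotated symbol starts with Kcn, from probe sets that carry a single symbol. The rule found 83 genes among the 14324 genes measured, each with 1 probe set, so that no choice between probe sets of a gene arose. Of the 83, 67 encode subunits that form a pore and 16 encode auxiliary subunits, so the symbols also cover proteins that are not channels by themselves. The set fell into 35 voltage-gated pore subunits, 16 auxiliary subunits, 6 channels activated by calcium or sodium, 15 inward rectifiers and 11 tandem-pore channels, in 19 subfamilies by symbol. RefSeq lists 95 protein-coding rat genes with such a symbol.

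Potassium channels let potassium leave the cell, which brings the membrane back to rest after excitation and holds the resting potential. Voltage-gated channels open on depolarisation, calcium-activated and sodium-activated channels open as those ions enter, inward rectifiers and tandem-pore channels carry the resting conductance, and auxiliary subunits set how fast channels open and how many reach the surface. In the retina, photoreceptors shape their light response with voltage-gated channels, and Muller glia clear potassium from around neurons through inward rectifiers. Pericytes and vascular smooth muscle use channels sensitive to ATP to set vessel tone.

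The groups were SD hyperoxia, SD room air, F344 hyperoxia and F344 room air on post-natal day 6 and the same 4 on day 5, with 2 arrays in each of these 8 groups. SD stands for Sprague Dawley, a strain generally known as susceptible to this retinopathy, and F344 for Fischer rats, generally known as resistant. Hyperoxia here means cyclic hyperoxia, in which mothers and litters breathed 80% and 21% oxygen in turns of 24 h, beginning within 12 h of birth; controls of the same age stayed in room air. No group carries a transgene or drug. Every array holds a pool of retinal RNA, and the design text speaks of 3 rats from 2 litters for the pools, so p-values measure only the spread between such pools.

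Values are log2 expression from a one-colour whole-transcript array, summarised by the authors with RMA. Array medians lay between 5.45 and 5.52, and Pearson's r between the 2 arrays of a group, across genes, lay between 0.987 and 0.997. F344 hyperoxia day 6 replicate 2 stood apart, with the highest median, the lowest interquartile range and the lowest r with its partner. For each call among the 83 genes, a range over fits with 1 array left out is given, this array included. Changes that were not called, and genes outside the 83, are given only with it. Rod markers were high in every group, with a mean log2 value of 8.94 to 9.91 over 17 genes. RMA values include background, so a fold with any group mean under 5.45, the lowest array median, on its low side is given as a lower bound. Of the 83 genes, 39 were under that median in all 8 groups, among them 15 voltage-gated subunits, 9 inward rectifiers, 7 auxiliary subunits, 6 tandem-pore channels and 2 of the channels activated by calcium or sodium. Levels of different genes are not compared, since probes differ in brightness.

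Of the 83 genes, 58 have an upstream sequence in the RefSeq promoter table of the rat assembly GRCr8, which comes from the BN strain and not from SD or F344. The 250 bases before the annotated start are shown for Kcna3, Kcnma1 and Kcnab3, the 3 genes whose group means ranged over more than 1 log2 unit, because the values below turn most on them. Capitals mark the core of the hypoxia response element, ACGTG or GCGTG, searched on both strands; on the minus strand it reads CACGT or CACGC.
Kcna3, chr2:197320074-197320323, plus strand: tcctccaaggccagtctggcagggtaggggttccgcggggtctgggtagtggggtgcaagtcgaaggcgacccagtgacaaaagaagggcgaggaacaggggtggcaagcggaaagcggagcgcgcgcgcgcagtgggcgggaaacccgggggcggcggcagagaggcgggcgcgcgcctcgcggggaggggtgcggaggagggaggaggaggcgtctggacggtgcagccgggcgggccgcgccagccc
Kcnma1, chr15:351675-351924, plus strand: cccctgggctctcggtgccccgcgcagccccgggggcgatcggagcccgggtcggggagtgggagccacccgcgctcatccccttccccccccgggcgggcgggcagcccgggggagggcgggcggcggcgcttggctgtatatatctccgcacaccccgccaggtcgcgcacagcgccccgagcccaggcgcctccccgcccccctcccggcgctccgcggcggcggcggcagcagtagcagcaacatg
Kcnab3, chr10:54546388-54546637, plus strand: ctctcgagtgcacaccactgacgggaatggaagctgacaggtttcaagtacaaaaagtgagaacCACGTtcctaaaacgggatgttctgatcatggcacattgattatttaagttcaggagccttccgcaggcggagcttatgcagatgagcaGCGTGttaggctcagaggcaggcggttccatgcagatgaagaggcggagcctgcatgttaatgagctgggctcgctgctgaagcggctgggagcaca
The Kcnab3 window holds ACGTG on the minus strand at bases −186 to −182 from the start and GCGTG on the plus strand at −97 to −93, and the other two windows hold neither. Across the set, 25 of 58 upstream windows (43.1%) held the core, against 10400 of 27457 (37.9%) among all promoters in the table. Both forms of the core contain CG, and the median count of CG per window was 11 in the 58 and 6 in all promoters. The part of CG content in the share with the core was not tested. The photoreceptor motif TAATCC, also searched on both strands, was in 3 of 58 (5.17%), against 1737 of 27457 (6.33%). A match is a description of the letters and not of a bound site.

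Differences were tested with limma over all 14324 genes, and a gene was called at a Benjamini-Hochberg adjusted p under 0.05. Hyperoxia against room air changed few of the 83 genes, and each of those that passed was lower under hyperoxia. On day 6 over both strains, 4 of 83 (4.82%) were called, against 6.74% of all genes. In SD alone 1 of 83 (1.2%) was called on day 6, against 2.79% of all genes, and in F344 alone 1 of 83 (1.2%), against 1.19%. On day 5 limma called 0 of 83 over both strains (0.209% of all genes), 0 in SD (0.0628%) and 0 in F344 (0.126%). At an unadjusted p under 0.05 the day 5 counts were 9 over both strains (10.8%, against 11.2% of all genes), 6 in SD (7.23%, against 9.05%) and 6 in F344 (7.23%, against 8.36%). In fits with 1 array left out, the day 6 count over both strains was 14 without F344 hyperoxia replicate 1 of that day and 2 without SD hyperoxia replicate 2. It was 1 without SD hyperoxia replicate 1, SD room air replicate 1, F344 hyperoxia replicate 2 or either F344 room air array of that day. The F344 count on day 6 was 8 without F344 hyperoxia replicate 1 and 0 without its partner or either F344 room air array of that day. The SD count on day 6 was 0 without any 1 of the 4 SD arrays of that day, 3 without either F344 hyperoxia array of that day and 2 without either day 5 F344 room air array. In RNA of whole retina, fewer cells of a type and less RNA per cell cannot be told apart.

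The signals of the strains differed in more of these genes. Each gene had 1 probe set, so no other probe set could be set beside such a difference. Whether the strains differ in the sequence under the probes was not tested. Between SD and F344 under hyperoxia, with both days pooled, 16 of 83 (19.3%) were called, 6 higher and 10 lower in SD, against 8.96% of all genes. In room air 9 of 83 (10.8%) were called, 3 higher and 6 lower in SD, against 9.35% of all genes. At an unadjusted p under 0.05 the strain counts were nearer to those of all genes. They were 22 under hyperoxia (26.5%, against 23.3% of all genes) and 17 in room air (20.5%, against 23.4%). Between day 6 and day 5, 4 of 83 (4.82%) were called under hyperoxia, 2 in each direction, against 4.80% of all genes, and 4 of 83 (4.82%) in room air, 3 higher and 1 lower, against 3.00%. These counts also moved with single arrays. The hyperoxia strain count was 5 without day 5 F344 hyperoxia replicate 2, 7 without day 6 SD hyperoxia replicate 1 or day 5 SD hyperoxia replicate 2, and 8 without day 6 SD hyperoxia replicate 2 or day 5 SD hyperoxia replicate 1. The room air strain count was 4 without day 6 F344 room air replicate 2, and 5 without day 6 F344 room air replicate 1, day 6 SD room air replicate 2, day 5 SD room air replicate 1 or day 5 F344 room air replicate 2. The day count under hyperoxia was 13 without day 6 F344 hyperoxia replicate 1, and 2 without day 6 SD hyperoxia replicate 1, either day 5 SD hyperoxia array or day 5 F344 hyperoxia replicate 1. The day count in room air was 0 to 2 in 13 of the 16 fits with 1 array left out. In all, 22 of 83 genes (26.5%) were called in at least 1 of 15 comparisons, against 23.1% of all genes, and 61 in none. The median log2 change of the 83 was between −0.08 and 0.05 in the 15 comparisons, and their median span of group means, 0.38, was close to that of all genes, 0.41.

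**Figure D1:**
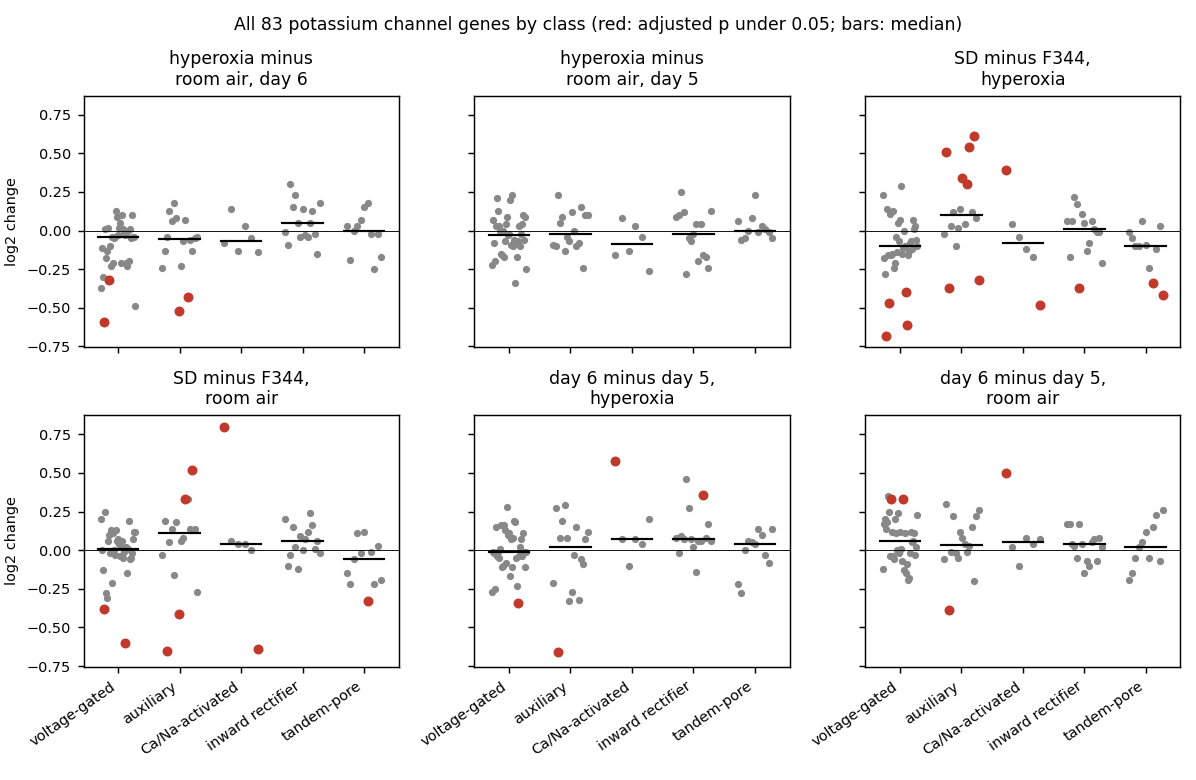
Log2 change of each of the 83 potassium channel genes (y axis) by class (x axis) in 6 comparisons; each point is a gene, red points have an adjusted p under 0.05 over all genes, and black bars are class medians. Called genes lie below 0 for hyperoxia against room air on day 6, 0 are called on day 5, and most red points are in the strain panels.

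Markers of cell types moved with strain and day, and their part in the results below was not tested. Of all genes, 8.96% were called between strains under hyperoxia and 9.35% in room air. Between days 4.80% were called under hyperoxia and 3.00% in room air. For hyperoxia against room air over both strains, 6.74% were called on day 6 and 0.209% on day 5. Of 17 rod genes, 6 were higher in SD than in F344 under hyperoxia (median log2 change 0.19) and 9 in room air (0.50). On day 6, against day 5, 9 were higher under hyperoxia (0.52) and 4 in room air (0.36), and 0 were lower in any of these. The summed level of the rod list, on the linear scale, lay between 16314 and 24036 in the SD arrays and between 13503 and 20110 in the F344 arrays. Of 14 progenitor and cell cycle genes, 2 were lower in SD under hyperoxia (−0.22) and 3 in room air (−0.37), and 12 were lower on day 6 under hyperoxia (−1.12) and 10 in room air (−0.79). For hyperoxia against room air on day 6 over both strains, 2 of 17 rod genes (0.01) and 1 of 14 progenitor genes (−0.15) were higher. There 4 of 17 endothelial genes were lower (−0.17), and 0 of 14 amacrine and horizontal cell genes were called (−0.10). In SD alone on day 6 the 9 bipolar cell genes had a median change of −0.51, with 1 called lower, against 2.79% of all genes. Of 16 genes regulated by oxygen, 11 were lower and 0 higher under hyperoxia on day 5 over both strains (−0.89). On day 6, 0 were lower and 7 higher (0.31). Of these 16, 13 were higher and 0 lower on day 6 than on day 5 under hyperoxia (1.07), against 0 and 1 in room air (−0.09). Between days under hyperoxia, age and stage of the oxygen cycle cannot be told apart.

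Among voltage-gated pore subunits, Kcna3 showed the widest span of the whole set. It encodes a delayed rectifier known from T lymphocytes, microglia and neurons (probe set 10818239). On day 6 Kcna3 read 6.4 and 6.82 in SD hyperoxia, against 7.32 and 7.23 in SD room air. In F344, Kcna3 read 7.42 and 7.43 in hyperoxia, against 8.0 and 7.90 in room air. Day 5 values of Kcna3 were 6.87 and 7.13 in SD hyperoxia, against 7.36 and 7.51 in SD room air. In F344, Kcna3 read 7.45 and 7.63 in hyperoxia, against 7.52 and 7.51 in room air. In both strains the day 6 hyperoxia arrays lay below their room air arrays, SD hyperoxia was the lowest group and F344 room air the highest, and on day 5 the F344 groups overlapped. Over both strains on day 6 Kcna3 was 1.51-fold lower under hyperoxia (log2 change −0.59 ± 0.10 SE, adjusted p = 0.0062, n = 2 arrays per group). Each call was also refitted 16 times with 1 array left out. The Kcna3 day 6 call over both strains held in all 16 such fits (adjusted p up to 0.0471, log2 −0.70 to −0.49). In SD alone it was 1.58-fold lower (log2 change −0.66 ± 0.14 SE, adjusted p = 0.0222). The Kcna3 day 6 call in SD was lost without either day 6 SD hyperoxia array or either day 6 SD room air array (adjusted p up to 0.356, log2 −0.87 to −0.45). In F344 alone the change of −0.53 ± 0.14 did not pass (adjusted p = 0.0684), and neither did the day 5 changes of −0.43 ± 0.14 in SD (adjusted p = 0.419) and 0.03 ± 0.14 in F344 (adjusted p = 0.971).

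Kcna3 was also lower in SD than in F344. Under hyperoxia it was 1.6-fold lower in SD (log2 change −0.68 ± 0.10 SE, adjusted p = 0.000696). The Kcna3 strain call under hyperoxia held in all 16 such fits (adjusted p up to 0.00728, log2 −0.78 to −0.57). In room air it was 1.3-fold lower (log2 change −0.38 ± 0.10 SE, adjusted p = 0.0254). The Kcna3 strain call in room air was lost without day 6 SD room air replicate 2, either day 6 F344 room air array, day 5 SD room air replicate 1 or day 5 F344 room air replicate 2 (adjusted p up to 0.092, log2 −0.42 to −0.34). The strain difference of its oxygen effect was −0.13 ± 0.42 on day 6 and −0.46 ± 0.42 on day 5 (95% intervals, adjusted p = 0.854 and 0.807). Of 12 microglial markers, 2 were called higher and 0 lower under hyperoxia on day 6 over both strains, with a median change of 0.06. Of all genes, 6.74% were called there. In each group 7 to 9 of them were under the lowest array median.

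Of the other 7 Kcna genes, only Kcna6 was called in any comparison. Kcna6, a delayed rectifier subunit, read 5.57 and 5.76 on day 6 and 5.56 and 5.69 on day 5 in SD retina, against 5.98 and 6.20 on day 6 and 6.09 and 6.20 on day 5 in F344 retina under hyperoxia, and the strains did not overlap. It was 1.39-fold lower in SD (log2 change −0.47 ± 0.11 SE, adjusted p = 0.0179). The Kcna6 strain call under hyperoxia was lost without day 6 SD hyperoxia replicate 1, day 5 SD hyperoxia replicate 1 or day 5 F344 hyperoxia replicate 2 (adjusted p up to 0.0974, log2 −0.53 to −0.42). On day 6 Kcna1, an axonal subunit, read 6.14 and 6.39 in SD hyperoxia, against 6.46 and 6.62 in SD room air. In F344, Kcna1 read 6.14 and 5.98 in hyperoxia, against 6.52 and 6.56 in room air. Each Kcna1 hyperoxia array was below its room air arrays on day 6, but the change over both strains, −0.37 ± 0.12, did not pass (adjusted p = 0.0638). Kcna2, its usual axonal partner, was at −0.30 ± 0.10 over both strains on day 6 (adjusted p = 0.0694). Kcna5, a subunit best known from atrial muscle, was at −0.36 ± 0.14 in F344 on day 6 (adjusted p = 0.192) and at 0.21 ± 0.10 over both strains on day 5 (adjusted p = 0.441). Kcna4 spanned 0.43 between its lowest and highest group means, Kcna10 0.27 and Kcna7 0.16, and none of these 3 was called in any comparison.

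On day 6 Kcnb2, a slow delayed rectifier (probe set 10874952), read 5.43 and 5.53 in SD hyperoxia, against 5.95 and 5.88 in SD room air. In F344, Kcnb2 read 5.52 and 5.52 in hyperoxia, against 5.78 and 5.65 in room air. All 4 hyperoxia arrays of that day were below all 4 room air arrays. Kcnb2 was 1.24-fold lower over both strains (log2 change −0.32 ± 0.08 SE, adjusted p = 0.0331). The Kcnb2 day 6 call over both strains was lost without either day 6 SD hyperoxia array, either day 6 SD room air array, day 6 F344 hyperoxia replicate 2 or either day 6 F344 room air array (adjusted p up to 0.152, log2 −0.35 to −0.28). The change was −0.43 ± 0.12 in SD (adjusted p = 0.0565) and −0.20 ± 0.12 in F344 (adjusted p = 0.395). In room air it was 1.26-fold higher on day 6 than on day 5 (log2 change 0.33 ± 0.08 SE, adjusted p = 0.0396). Those room air values of Kcnb2 were 5.95 and 5.88 in SD and 5.78 and 5.65 in F344 on day 6, against 5.46 and 5.52 in SD and 5.62 and 5.34 in F344 on day 5. The Kcnb2 day call in room air was kept in 3 of 16 fits, those without either day 6 F344 hyperoxia array or day 5 F344 room air replicate 1 (adjusted p up to 0.173, log2 0.26 to 0.40). Kcnv2 is a silent subunit that joins Kcnb channels in photoreceptors, and its loss causes a human cone dystrophy. On day 6 Kcnv2 read 8.43 and 8.77 in SD hyperoxia, against 9.36 and 8.92 in SD room air. In F344, Kcnv2 read 9.11 and 8.26 in hyperoxia, against 9.02 and 9.22 in room air. Its 2 F344 hyperoxia arrays were far apart, with replicate 2 low and replicate 1 level with room air. The Kcnv2 change over both strains, −0.49 ± 0.15, did not pass (adjusted p = 0.0685), nor did those in SD (−0.54, adjusted p = 0.193) and F344 (−0.44, adjusted p = 0.317).

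Of the 8 Kcnh genes, which encode the eag, erg and elk channels, 2 were called between strains under hyperoxia and 1 in room air, against 8.96% and 9.35% of all genes. Kcnh6, an erg channel (probe set 10739071), read 7.68 and 7.75 on day 6 and 7.75 and 7.85 on day 5 in SD retina, against 8.33 and 8.39 on day 6 and 8.38 and 8.37 on day 5 in F344 retina under hyperoxia. In room air Kcnh6 read 7.77 and 7.47 on day 6 and 8.06 and 7.97 on day 5 in SD retina, against 8.45 and 8.59 on day 6 and 8.21 and 8.41 on day 5 in F344 retina. Every F344 array was above every SD array in both exposures. Kcnh6 was 1.53-fold lower in SD under hyperoxia (log2 change −0.61 ± 0.09 SE, adjusted p = 0.000491) and 1.52-fold lower in room air (log2 change −0.60 ± 0.09 SE, adjusted p = 0.000546). The Kcnh6 strain call under hyperoxia held in all 16 such fits (adjusted p up to 0.00533, log2 −0.64 to −0.59). The Kcnh6 strain call in room air held in all 16 such fits (adjusted p up to 0.00573, log2 −0.67 to −0.53). Its oxygen effects were between −0.21 in SD on day 5 and 0.10 in SD on day 6, with none called.

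Kcnh5, an eag channel, read 7.47 and 7.48 on day 6 and 7.17 and 7.38 on day 5 in SD retina, against 7.91 and 7.80 on day 6 and 7.69 and 7.69 on day 5 in F344 retina under hyperoxia, and each SD array was below each F344 array. In room air Kcnh5 read 7.72 and 7.78 on day 6 and 7.71 and 7.76 on day 5 in SD retina, against 7.47 and 7.72 on day 6 and 7.92 and 7.90 on day 5 in F344 retina, and the strains overlapped there. It was 1.32-fold lower in SD under hyperoxia (log2 change −0.40 ± 0.08 SE, adjusted p = 0.00687). The Kcnh5 strain call under hyperoxia held in all 16 such fits (adjusted p up to 0.0477, log2 −0.45 to −0.34). Its room air difference was −0.01 ± 0.17 (95% interval, adjusted p = 0.96). The oxygen effect on Kcnh5 was −0.46 ± 0.11 in SD on day 5 (adjusted p = 0.323) and 0.26 ± 0.11 in F344 on day 6 (adjusted p = 0.25). The strain difference of that effect on day 6 was −0.53 ± 0.16 (adjusted p = 0.199), and none of these passed. Kcnh2, the erg channel whose loss lengthens the cardiac action potential, read 5.97 and 6.12 in SD and 6.31 and 6.28 in F344 on day 6, against 6.05 and 5.90 in SD and 5.75 and 5.64 in F344 on day 5 in room air. F344 day 6 was highest and F344 day 5 lowest, and Kcnh2 was 1.26-fold higher on day 6 (log2 change 0.33 ± 0.08 SE, adjusted p = 0.0338). The Kcnh2 day call in room air was kept in 5 of 16 fits, those without day 6 SD room air replicate 1, either day 6 F344 hyperoxia array or either day 5 F344 hyperoxia array (adjusted p up to 0.139, log2 0.29 to 0.37). Under hyperoxia its day difference was −0.11 ± 0.08 (adjusted p = 0.485). The day difference of its oxygen effect in F344, −0.63 ± 0.16, came near the threshold (adjusted p = 0.0682). Kcnh8, an elk channel, read 4.91 and 5.14 in SD and 5.20 and 5.20 in F344 on day 6, against 5.48 and 5.35 in SD and 5.59 and 5.39 in F344 on day 5 under hyperoxia and was at least 1.26-fold lower on day 6 (log2 change −0.34 ± 0.08 SE, adjusted p = 0.0265). The Kcnh8 day call under hyperoxia was lost without day 6 SD hyperoxia replicate 1, either day 5 SD hyperoxia array or day 5 F344 hyperoxia replicate 1 (adjusted p up to 0.157, log2 −0.39 to −0.28). Kcnh7, Kcnh1, Kcnh3 and Kcnh4 were called in no comparison.

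The remaining voltage-gated genes were called in no comparison. Kcnc1 and Kcnc2, the fast channels of neurons that fire at high rates, had oxygen effects over both strains on day 6 of −0.10 ± 0.12 and −0.23 ± 0.09 (adjusted p = 0.66 and 0.108). Kcnd2, a pore subunit of the transient A-type current, was at −0.41 ± 0.17 in SD on day 5 (adjusted p = 0.51). Kcnq3, a subunit of the M current channel, was at −0.29 ± 0.11 in SD on day 6 and −0.27 ± 0.11 on day 5 (adjusted p = 0.141 and 0.483). Kcnf1, the 4 Kcng genes, the 3 Kcns genes and Kcnv1, silent subunits that act only within other channels, were called in no comparison, and Kcns1 had, with Kcnq1, the narrowest span of group means of all 83 genes, 0.13.

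**Figure D2:**
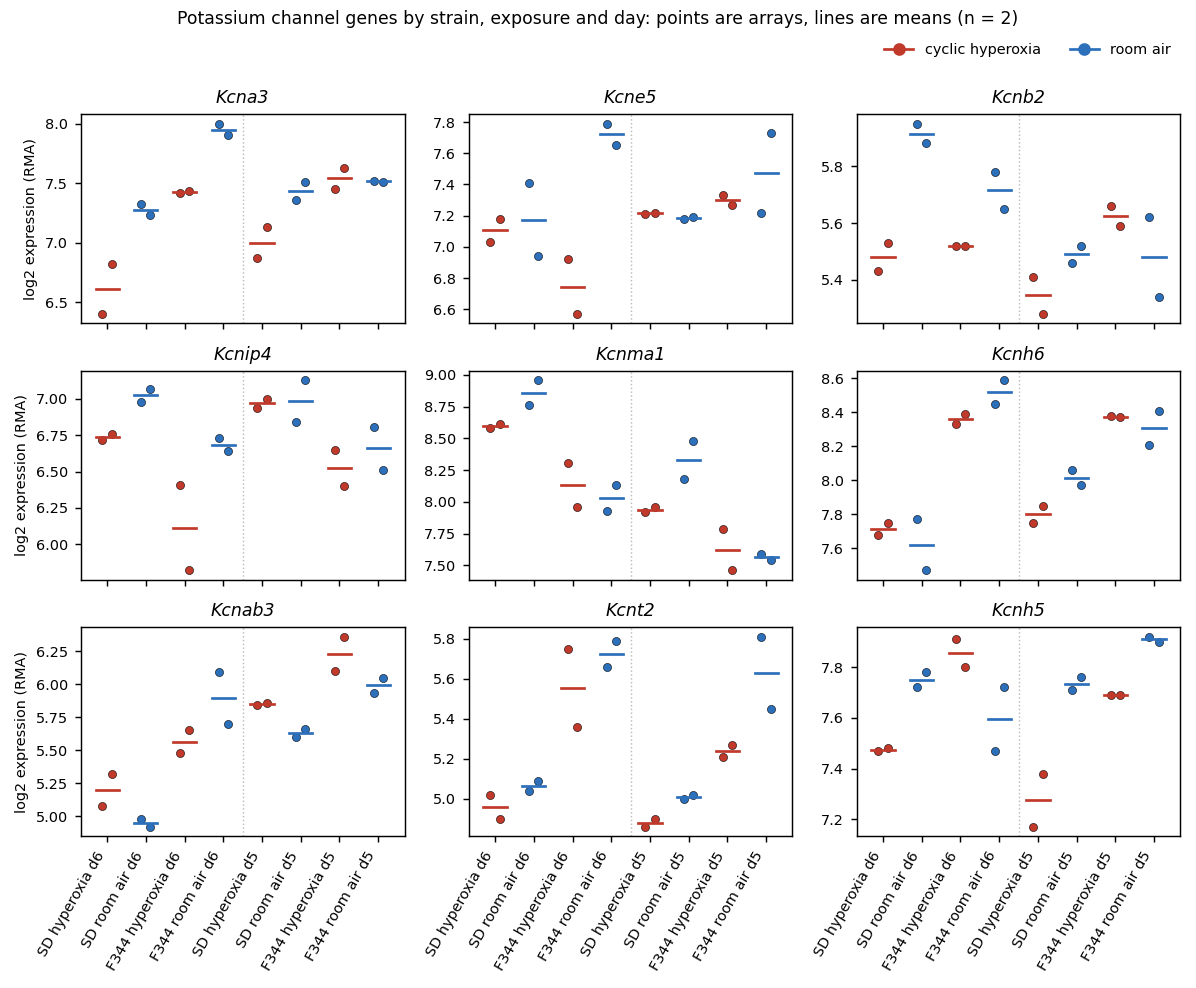
Log2 expression of 9 potassium channel genes (y axis) in the 8 groups (x axis; d6 and d5 are post-natal days 6 and 5); points are single arrays, lines are means of 2 arrays, red is cyclic hyperoxia and blue room air. Kcna3, Kcnb2 and Kcnip4 are lower under hyperoxia on day 6 in both strains. Kcne5 is lower there in F344, while its SD arrays overlap. Kcnh6 and Kcnt2 separate the strains in both exposures.

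Auxiliary subunits held the next clear differences. The Kcnab genes encode beta subunits that sit on the inner face of Kcna channels. On day 6 Kcnab3 (probe set 10734952) read 5.08 and 5.32 in SD hyperoxia, against 4.98 and 4.92 in SD room air. In F344, Kcnab3 read 5.48 and 5.65 in hyperoxia, against 6.09 and 5.70 in room air. Day 5 values of Kcnab3 were 5.84 and 5.86 in SD hyperoxia, against 5.60 and 5.66 in SD room air. In F344, Kcnab3 read 6.10 and 6.36 in hyperoxia, against 5.93 and 6.05 in room air. Day 5 arrays were above day 6 arrays of the same strain and exposure except in F344 room air, where they overlapped, and F344 was above SD in each exposure and day. Under hyperoxia Kcnab3 was at least 1.58-fold lower on day 6 than on day 5 (log2 change −0.66 ± 0.10 SE, adjusted p = 0.000772). The Kcnab3 day call under hyperoxia held in all 16 such fits (adjusted p up to 0.00918, log2 −0.73 to −0.60). In room air it was at least 1.31-fold lower on day 6 (log2 change −0.39 ± 0.10 SE, adjusted p = 0.0459). The Kcnab3 day call in room air was kept in 3 of 16 fits, those without either day 6 F344 hyperoxia array or day 6 F344 room air replicate 1 (adjusted p up to 0.243, log2 −0.48 to −0.29). Between strains it was at least 1.57-fold lower in SD in room air (log2 change −0.65 ± 0.10 SE, adjusted p = 0.000909). The Kcnab3 strain call in room air held in all 16 such fits (adjusted p up to 0.00682, log2 −0.75 to −0.56). Under hyperoxia Kcnab3 was at least 1.3-fold lower in SD (log2 change −0.37 ± 0.10 SE, adjusted p = 0.0283). The Kcnab3 strain call under hyperoxia was lost without day 6 SD hyperoxia replicate 1, day 6 F344 hyperoxia replicate 2, either day 5 SD hyperoxia array or day 5 F344 hyperoxia replicate 2 (adjusted p up to 0.145, log2 −0.44 to −0.31). The progenitor and cell cycle list, called lower on day 6 in 12 of 14 genes under hyperoxia, moved in the same direction as Kcnab3 between days and between strains. Kcnab2 read 7.43 and 7.32 on day 6 and 7.13 and 6.81 on day 5 in SD retina, against 6.71 and 6.75 on day 6 and 6.85 and 6.35 on day 5 in F344 retina under hyperoxia and was 1.42-fold higher in SD (log2 change 0.51 ± 0.15 SE, adjusted p = 0.0414). The Kcnab2 strain call under hyperoxia was lost without either day 6 SD hyperoxia array, either day 6 F344 hyperoxia array, either day 6 F344 room air array, either day 5 SD hyperoxia array or day 5 F344 hyperoxia replicate 2 (adjusted p up to 0.2, log2 0.39 to 0.63). Kcnab1 was at −0.35 ± 0.14 in SD on day 6 (adjusted p = 0.199).

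Kcne5, a small single-pass subunit that inhibits Kcnq1 channels (probe set 10932813), had the largest fall under hyperoxia of the 83 genes. On day 6 Kcne5 read 7.03 and 7.18 in SD hyperoxia, against 7.41 and 6.94 in SD room air. In F344, Kcne5 read 6.92 and 6.57 in hyperoxia, against 7.79 and 7.65 in room air. Both F344 hyperoxia arrays were below every other array of that day, while the SD groups overlapped. In F344 it was 1.96-fold lower (log2 change −0.97 ± 0.17 SE, adjusted p = 0.023). The Kcne5 day 6 call in F344 was lost without day 6 F344 hyperoxia replicate 2 or either day 6 F344 room air array (adjusted p up to 0.236, log2 −1.14 to −0.79). Over both strains it was 1.44-fold lower (log2 change −0.52 ± 0.12 SE, adjusted p = 0.0217). The Kcne5 day 6 call over both strains was lost without day 6 SD hyperoxia replicate 1, day 6 SD room air replicate 1, day 6 F344 hyperoxia replicate 2 or either day 6 F344 room air array (adjusted p up to 0.126, log2 −0.64 to −0.40). In SD on day 6 the change was −0.07 ± 0.37 (95% interval, adjusted p = 0.88), and the difference between the strains, SD minus F344, was 0.89 ± 0.24 and did not pass (adjusted p = 0.151). On day 5 the F344 change was −0.18 ± 0.17 (adjusted p = 0.822). In room air Kcne5 was 1.33-fold lower in SD (log2 change −0.41 ± 0.12 SE, adjusted p = 0.0457). The Kcne5 strain call in room air was kept in 4 of 16 fits, those without day 6 SD room air replicate 1, either day 6 F344 hyperoxia array or day 5 F344 room air replicate 1 (adjusted p up to 0.211, log2 −0.54 to −0.29). The other 4 Kcne genes were under the lowest array median in all 8 groups and were called in no comparison.

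The Kcnip genes encode calcium-binding partners of Kcnd channels. On day 6 Kcnip4 (probe set 10773030) read 6.72 and 6.76 in SD hyperoxia, against 6.98 and 7.07 in SD room air. In F344, Kcnip4 read 6.41 and 5.82 in hyperoxia, against 6.73 and 6.64 in room air. The F344 hyperoxia arrays were lowest and differed from each other by more than the arrays of any other group of that day. Kcnip4 was 1.35-fold lower over both strains (log2 change −0.43 ± 0.12 SE, adjusted p = 0.0427). The Kcnip4 day 6 call over both strains was lost without either day 6 SD hyperoxia array, either day 6 SD room air array, day 6 F344 hyperoxia replicate 2, either day 6 F344 room air array or either day 5 SD hyperoxia array (adjusted p up to 0.168, log2 −0.58 to −0.28). In F344 alone the change was −0.57 ± 0.17 (adjusted p = 0.0924) and in SD −0.29 ± 0.17 (adjusted p = 0.389). Between strains under hyperoxia Kcnip4 was 1.45-fold higher in SD (log2 change 0.54 ± 0.12 SE, adjusted p = 0.0117). Its hyperoxia values were 6.72 and 6.76 on day 6 and 6.94 and 7.0 on day 5 in SD retina, against 6.41 and 5.82 on day 6 and 6.65 and 6.4 on day 5 in F344 retina. The Kcnip4 strain call under hyperoxia was lost without day 5 F344 hyperoxia replicate 2 (adjusted p up to 0.0703, log2 0.39 to 0.68). In room air the difference was 0.33 ± 0.12 (adjusted p = 0.0966).

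Kcnip1, which marks subsets of interneurons, read 7.46 and 7.43 on day 6 and 7.66 and 7.63 on day 5 in SD retina, against 7.22 and 6.84 on day 6 and 7.44 and 7.30 on day 5 in F344 retina under hyperoxia and was 1.27-fold higher in SD (log2 change 0.34 ± 0.10 SE, adjusted p = 0.0364). The Kcnip1 strain call under hyperoxia was lost without either day 6 SD hyperoxia array, day 6 F344 hyperoxia replicate 2, either day 6 F344 room air array, either day 5 SD hyperoxia array or either day 5 F344 hyperoxia array (adjusted p up to 0.15, log2 0.25 to 0.44). In F344 on day 6 its oxygen effect was −0.49 ± 0.14 (adjusted p = 0.0776). Kcnip3, also known as a calcium-dependent repressor of transcription, was higher in SD in both exposures, at least 1.23-fold higher under hyperoxia (log2 change 0.30 ± 0.09 SE, adjusted p = 0.0439) and at least 1.26-fold higher in room air (log2 change 0.33 ± 0.09 SE, adjusted p = 0.0255). Under hyperoxia Kcnip3 read 5.70 and 6.00 on day 6 and 5.69 and 5.69 on day 5 in SD retina, against 5.50 and 5.60 on day 6 and 5.48 and 5.32 on day 5 in F344 retina. In room air Kcnip3 read 5.92 and 5.73 on day 6 and 5.75 and 5.84 on day 5 in SD retina, against 5.51 and 5.39 on day 6 and 5.51 and 5.50 on day 5 in F344 retina. The Kcnip3 strain call under hyperoxia was kept in 6 of 16 fits, those without day 6 SD hyperoxia replicate 1, either day 6 SD room air array, day 6 F344 hyperoxia replicate 2 or either day 5 F344 room air array (adjusted p up to 0.181, log2 0.22 to 0.37). The Kcnip3 strain call in room air was lost without day 6 SD room air replicate 1, either day 6 F344 room air array, day 5 SD room air replicate 2 or day 5 F344 room air replicate 2 (adjusted p up to 0.111, log2 0.28 to 0.38). Kcnip2 spanned only 0.15 and was low in all groups.

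The Kcnmb genes encode beta subunits of the large-conductance channel whose pore is Kcnma1. Kcnmb2, which makes that channel inactivate, read 6.06 and 5.78 on day 6 and 5.89 and 6.13 on day 5 in SD retina, against 5.33 and 5.30 on day 6 and 5.46 and 5.33 on day 5 in F344 retina under hyperoxia. In room air Kcnmb2 read 6.09 and 6.15 on day 6 and 6.28 and 5.90 on day 5 in SD retina, against 5.48 and 5.26 on day 6 and 6.23 and 5.36 on day 5 in F344 retina. It was at least 1.53-fold higher in SD under hyperoxia (log2 change 0.61 ± 0.15 SE, adjusted p = 0.0201) and at least 1.44-fold higher in room air (log2 change 0.52 ± 0.15 SE, adjusted p = 0.0408). The Kcnmb2 strain call under hyperoxia was lost without day 6 SD hyperoxia replicate 1, day 5 SD hyperoxia replicate 2 or day 5 F344 hyperoxia replicate 2 (adjusted p up to 0.109, log2 0.54 to 0.68). The Kcnmb2 strain call in room air was kept in 4 of 16 fits, those without either day 6 F344 hyperoxia array, day 5 SD room air replicate 2 or day 5 F344 room air replicate 1 (adjusted p up to 0.167, log2 0.30 to 0.74). Kcnmb4, the neuronal beta subunit, went the other way, 1.25-fold lower in SD under hyperoxia (log2 change −0.32 ± 0.09 SE, adjusted p = 0.0315). Under hyperoxia Kcnmb4 read 5.82 and 5.65 on day 6 and 5.63 and 5.39 on day 5 in SD retina, against 5.98 and 5.92 on day 6 and 5.87 and 6.00 on day 5 in F344 retina. The Kcnmb4 strain call under hyperoxia was lost without either day 6 SD hyperoxia array, day 5 SD hyperoxia replicate 2 or day 5 F344 hyperoxia replicate 2 (adjusted p up to 0.139, log2 −0.38 to −0.26). Kcnmb1, the smooth muscle subunit, and Kcnmb3 were under the lowest array median in all groups, and neither was called.

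Kcnma1 itself, the pore of the large-conductance channel opened by calcium and voltage together (probe set 10778953), had the second widest span, and its highest group was SD room air on day 6. In room air it read 8.76 and 8.96 on day 6 and 8.18 and 8.48 on day 5 in SD retina, against 7.93 and 8.13 on day 6 and 7.59 and 7.54 on day 5 in F344 retina. Under hyperoxia Kcnma1 read 8.58 and 8.61 on day 6 and 7.92 and 7.96 on day 5 in SD retina, against 8.31 and 7.96 on day 6 and 7.79 and 7.46 on day 5 in F344 retina. In each exposure and on each day both SD arrays were above both F344 arrays, and day 6 was above day 5 in each strain and exposure. Kcnma1 was 1.74-fold higher in SD in room air (log2 change 0.80 ± 0.10 SE, adjusted p = 0.000276), the largest strain difference of the 83 genes there. The Kcnma1 strain call in room air held in all 16 such fits (adjusted p up to 0.00311, log2 0.72 to 0.88). Under hyperoxia it was 1.31-fold higher in SD (log2 change 0.39 ± 0.10 SE, adjusted p = 0.0323). The Kcnma1 strain call under hyperoxia was lost without either day 6 SD hyperoxia array, day 6 F344 hyperoxia replicate 2, either day 5 SD hyperoxia array or day 5 F344 hyperoxia replicate 2 (adjusted p up to 0.161, log2 0.30 to 0.47). Between days it was 1.5-fold higher on day 6 under hyperoxia (log2 change 0.58 ± 0.10 SE, adjusted p = 0.00361) and 1.41-fold higher in room air (log2 change 0.50 ± 0.10 SE, adjusted p = 0.0195). The Kcnma1 day call under hyperoxia held in all 16 such fits (adjusted p up to 0.0255, log2 0.50 to 0.67). The Kcnma1 day call in room air was lost without day 6 SD room air replicate 2, day 6 F344 room air replicate 2, day 5 SD room air replicate 1 or day 5 F344 room air replicate 1 (adjusted p up to 0.122, log2 0.42 to 0.58). Rod genes were likewise higher in SD and on day 6, in the counts given above, but not they alone. Of 12 cone genes, 3 were higher in SD under hyperoxia and 4 in room air. On day 6, 2 cone genes were higher in each exposure and 1 was lower in room air. Of 9 bipolar cell genes, 3 were higher on day 6 in each exposure. Between strains, 2 bipolar cell genes were higher and 1 lower in SD in room air, and 0 higher and 1 lower under hyperoxia. Of 13 ganglion cell genes, 3 were higher in SD in room air, and 0 were higher and 1 lower under hyperoxia. Of 10 Muller glia genes, 2 were higher in SD in room air and 1 under hyperoxia. On day 6, 2 Muller glia genes were higher under hyperoxia and 1 was lower in room air. The oxygen effect on Kcnma1 was −0.27 ± 0.15 in SD and 0.10 ± 0.15 in F344 on day 6, and −0.39 ± 0.15 in SD and 0.06 ± 0.15 in F344 on day 5, with adjusted p = 0.359, 0.762, 0.474 and 0.932.

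Kcnt2, a sodium-activated channel (probe set 10764460), was lower in SD. In room air it read 5.04 and 5.09 on day 6 and 5.00 and 5.02 on day 5 in SD retina, against 5.66 and 5.79 on day 6 and 5.81 and 5.45 on day 5 in F344 retina. Under hyperoxia Kcnt2 read 5.02 and 4.90 on day 6 and 4.86 and 4.90 on day 5 in SD retina, against 5.75 and 5.36 on day 6 and 5.21 and 5.27 on day 5 in F344 retina. Every SD array was below every F344 array in both exposures, and all SD arrays were under the lowest array median. It was at least 1.39-fold lower in SD under hyperoxia (log2 change −0.48 ± 0.10 SE, adjusted p = 0.00695) and at least 1.55-fold lower in room air (log2 change −0.64 ± 0.10 SE, adjusted p = 0.00103). The Kcnt2 strain call under hyperoxia held in all 16 such fits (adjusted p up to 0.0386, log2 −0.58 to −0.38). The Kcnt2 strain call in room air held in all 16 such fits (adjusted p up to 0.00855, log2 −0.73 to −0.55). On day 5 Kcnt2 was at −0.39 ± 0.14 under hyperoxia in F344 (adjusted p = 0.45). Kcnt1 and the small-conductance and intermediate-conductance genes Kcnn1, Kcnn3 and Kcnn4, opened by calcium through calmodulin, were called in no comparison; Kcnn1 was at 0.28 ± 0.12 in SD on day 6 (adjusted p = 0.209).

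Of the 15 inward rectifiers, 1 was called between strains under hyperoxia and 1 between days under hyperoxia, against 8.96% and 4.80% of all genes. Kcnj14 read 6.26 and 6.16 on day 6 and 5.69 and 5.8 on day 5 in SD retina, against 6.44 and 6.33 on day 6 and 6.42 and 6.22 on day 5 in F344 retina under hyperoxia, and each F344 array was above the SD arrays of its day. It was 1.3-fold lower in SD (log2 change −0.37 ± 0.09 SE, adjusted p = 0.0162). The Kcnj14 strain call under hyperoxia was lost without day 6 SD hyperoxia replicate 2, day 5 SD hyperoxia replicate 1 or day 5 F344 hyperoxia replicate 1 (adjusted p up to 0.0793, log2 −0.42 to −0.33). Kcnj5, a subunit of channels opened by G proteins, read 5.10 and 5.10 in SD and 5.26 and 5.03 in F344 on day 6, against 4.76 and 4.84 in SD and 4.71 and 4.74 in F344 on day 5 under hyperoxia and was at least 1.28-fold higher on day 6 (log2 change 0.36 ± 0.09 SE, adjusted p = 0.0232). All its group means were under the lowest array median. The Kcnj5 day call under hyperoxia was lost without either day 6 SD hyperoxia array, either day 5 SD hyperoxia array or either day 5 F344 hyperoxia array (adjusted p up to 0.0931, log2 0.30 to 0.42). On day 6 Kcnj10, the main inward rectifier of Muller glia, read 5.27 and 5.48 in SD hyperoxia, against 5.44 and 5.39 in SD room air. In F344, Kcnj10 read 5.46 and 5.51 in hyperoxia, against 5.65 and 5.61 in room air. Its day 6 change was −0.09 ± 0.16 over both strains and its day 5 change 0.10 ± 0.16 (95% intervals, adjusted p = 0.5 and 0.661). Kcnj2, a strong rectifier, was at −0.03 ± 0.21 on day 6 and 0.04 ± 0.21 on day 5, and Kcnj16, which pairs with Kcnj10, at 0.14 ± 0.18 and −0.02 ± 0.18 (95% intervals over both strains). Kcnj2 and Kcnj16 were under the lowest array median in all groups, and group means of Kcnj10 lay between 5.33 and 5.63. Values this low include much background, so these intervals do not show that the 3 genes were unchanged.

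The ATP-sensitive channels were followed as a pair of pores. On day 6 Kcnj11, the pore of neurons and pancreatic beta cells, read 5.67 and 5.55 in SD hyperoxia, against 5.08 and 5.36 in SD room air. In F344, Kcnj11 read 5.30 and 5.63 in hyperoxia, against 5.34 and 5.18 in room air. Day 5 values of Kcnj11 were 5.58 and 5.29 in SD hyperoxia, against 5.26 and 5.12 in SD room air. In F344, Kcnj11 read 5.41 and 5.51 in hyperoxia, against 5.29 and 5.13 in room air. Hyperoxia means were above room air means in both strains on both days, but the changes of 0.30 ± 0.10 on day 6 and 0.25 ± 0.10 on day 5 over both strains did not pass (adjusted p = 0.086 and 0.377). On day 5 Kcnj8, the pore of pericytes and vascular smooth muscle, read 4.48 and 4.59 in SD hyperoxia, against 4.72 and 4.82 in SD room air. In F344, Kcnj8 read 4.51 and 4.43 in hyperoxia, against 4.42 and 5.01 in room air. Its day 5 change over both strains was −0.24 ± 0.11 (adjusted p = 0.432), and all its arrays were under the lowest array median. Of 12 pericyte and smooth muscle genes, 0 were called by limma in that comparison, with a median change of −0.19, and 9 or 10 of the 12 were under the lowest array median in each group.

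Kcnj13, the inward rectifier of the retinal pigment epithelium, had oxygen effects of opposite sign on the 2 days in F344. On day 6 Kcnj13 read 5.06 and 5.20 in SD hyperoxia, against 4.74 and 5.52 in SD room air. In F344, Kcnj13 read 5.09 and 5.36 in hyperoxia, against 4.87 and 4.65 in room air. Day 5 values of Kcnj13 were 4.87 and 5.00 in SD hyperoxia, against 4.85 and 4.82 in SD room air. In F344, Kcnj13 read 4.56 and 4.44 in hyperoxia, against 5.14 and 5.17 in room air. In F344 hyperoxia arrays were above room air arrays on day 6 and below them on day 5, without overlap, and all values were near or under the lowest array median. The day difference of the oxygen effect in F344 was 1.12 ± 0.26 and just missed the threshold (adjusted p = 0.0594), with 0.46 on day 6 (adjusted p = 0.215) and −0.66 on day 5 (adjusted p = 0.313). Of 9 markers of pigment epithelium, choroid and ciliary body, 0 were called in that comparison, with a median of 0.10, and 7 of 9 were under the lowest array median in every group.

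Tandem-pore channels, which carry leak currents, had 2 of 11 genes called between strains under hyperoxia and 1 of 11 in room air, against 8.96% and 9.35% of all genes, and none between exposures or days. Kcnk9, an acid-sensitive channel, read 5.17 and 5.13 on day 6 and 5.25 and 4.78 on day 5 in SD retina, against 5.42 and 5.74 on day 6 and 5.50 and 5.36 on day 5 in F344 retina under hyperoxia and was at least 1.34-fold lower in SD (log2 change −0.42 ± 0.12 SE, adjusted p = 0.0446). The Kcnk9 strain call under hyperoxia was lost without either day 6 SD hyperoxia array, day 6 F344 hyperoxia replicate 2, either day 6 F344 room air array, day 5 SD hyperoxia replicate 2 or either day 5 F344 hyperoxia array (adjusted p up to 0.195, log2 −0.53 to −0.30). Kcnk3, a close relative, read 4.18 and 4.42 on day 6 and 4.36 and 4.45 on day 5 in SD retina, against 4.96 and 4.73 on day 6 and 4.40 and 4.67 on day 5 in F344 retina and was at least 1.27-fold lower in SD (log2 change −0.34 ± 0.10 SE, adjusted p = 0.0473). Its values were low in all groups. The Kcnk3 strain call under hyperoxia was kept in 6 of 16 fits, those without either day 6 SD room air array, day 6 F344 hyperoxia replicate 2, either day 6 F344 room air array or day 5 F344 hyperoxia replicate 1 (adjusted p up to 0.209, log2 −0.41 to −0.27). Kcnk2, a channel opened by stretch, heat and lipids, read 5.89 and 5.97 on day 6 and 6.16 and 6.08 on day 5 in SD retina, against 6.24 and 6.57 on day 6 and 6.42 and 6.19 on day 5 in F344 retina in room air and was 1.26-fold lower in SD (log2 change −0.33 ± 0.09 SE, adjusted p = 0.0356). The Kcnk2 strain call in room air was lost without either day 6 SD room air array, day 6 F344 room air replicate 2, either day 5 SD hyperoxia array, either day 5 SD room air array or day 5 F344 room air replicate 1 (adjusted p up to 0.178, log2 −0.41 to −0.25). Kcnk4, another stretch-sensitive channel, was at −0.49 ± 0.13 in F344 on day 6 and at −0.01 ± 0.13 in SD (adjusted p = 0.0681 and 0.989). Kcnk1, a weakly rectifying leak channel, was at 0.03 ± 0.20 on day 6 and 0.06 ± 0.20 on day 5 over both strains (95% intervals).

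**Figure D3:**
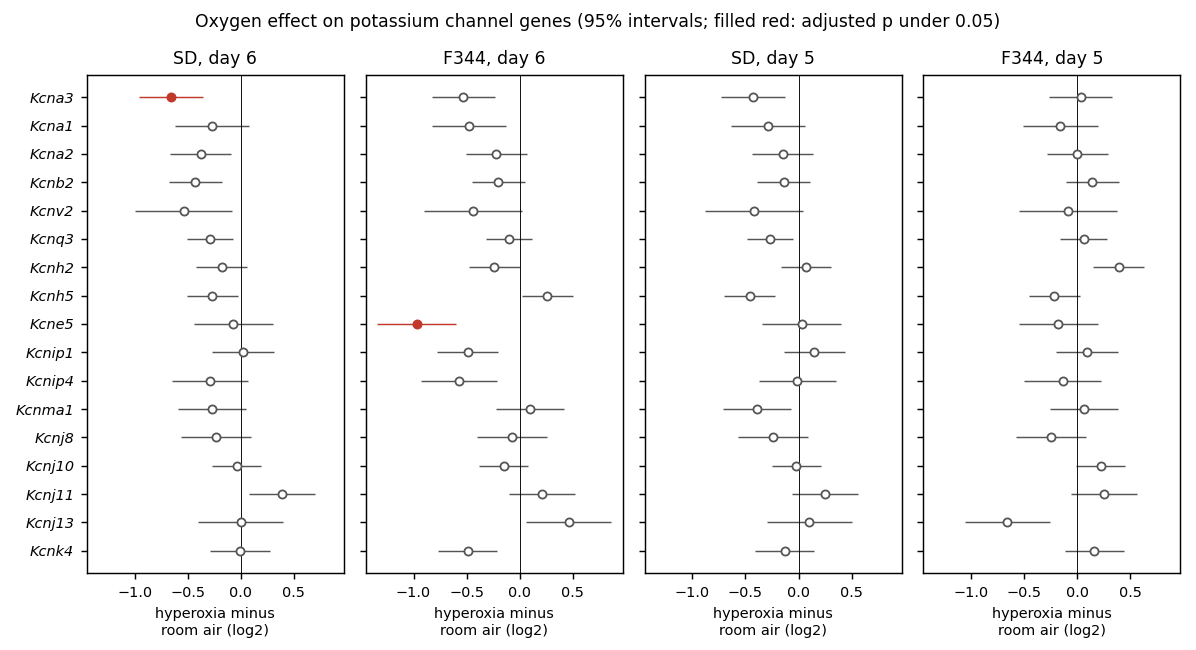
Oxygen effect, hyperoxia minus room air on the log2 scale (x axis), for 17 potassium channel genes (rows) in each strain and day; points are estimates from 2 arrays per group and bars 95% intervals, and filled red points have an adjusted p under 0.05. Kcna3 in SD on day 6 and Kcne5 in F344 on day 6 are the 2 filled points.

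No strain difference of the oxygen effect and no day difference of it passed for any of the 83 genes with limma. Between strains 7 of 83 had an unadjusted p under 0.05 on day 6 and 8 on day 5, which is 8.43% and 9.64%, against 11.5% and 6.14% of all genes. The smallest adjusted p-values of the 83 were 0.151 and 0.788, and 0.0559% and 0.00% of all genes were called. Between days the counts at an unadjusted p under 0.05 were 2 in SD, 14 in F344 and 10 over both strains, which is 2.41%, 16.9% and 12.0%, against 3.78%, 14.6% and 8.46% of all genes. The smallest adjusted p-values there were 1.0, 0.0594 and 0.19, and 0.112%, 1.02% and 0.182% of all genes were called. Half-widths of the 95% intervals of these differences had a median of 0.41 within a day or strain. Effects that passed in one strain and not in the other are therefore not shown to differ between strains.

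Estimates of the strain difference under hyperoxia and in room air rest on separate arrays, so these estimates can be set side by side. The calls are not separate in this way, because the arrays of both exposures share a common estimate of the spread. The Kcnip3 call under hyperoxia, for example, was lost without either day 6 F344 room air array. Called in both exposures were 7 genes, Kcna3, Kcnab3, Kcnh6, Kcnt2, Kcnma1, Kcnmb2 and Kcnip3, each with the same direction. Over the 83 genes the 2 differences had Pearson's r = 0.73 and Spearman's rho = 0.66, against r = 0.68 over all genes, and 58 of 83 (69.9%) had the same sign, against 67.0% of all genes. Genes are not independent replicates, and these are descriptions. For the day difference, r was 0.47 over the 83 genes and 0.55 over all genes, with Kcnma1 and Kcnab3 called in both exposures.

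**Figure D4:**
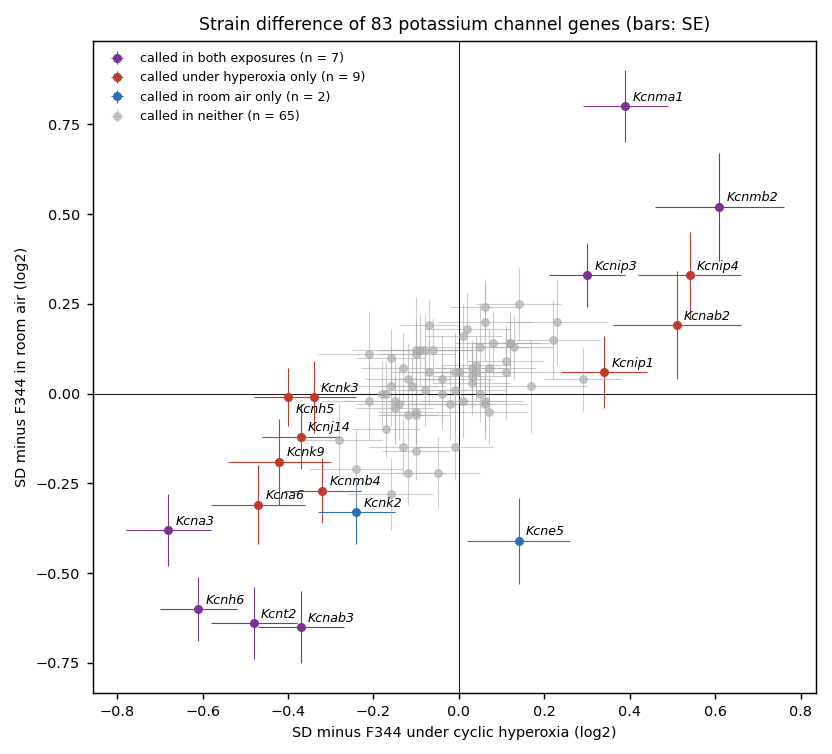
Strain difference, SD minus F344 on the log2 scale, under cyclic hyperoxia (x axis) and in room air (y axis) for the 83 potassium channel genes; points are genes and bars are standard errors. The 7 genes called in both exposures lie in the upper right and lower left corners, and Kcne5, called in room air, lies off the diagonal.

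Class averages differed little between groups. For each array, every gene's deviation from its 16-array mean was averaged over a class. Voltage-gated subunits were lowest in SD hyperoxia on day 6, at −0.135 and −0.081, and highest in F344 room air on day 6, at 0.1 and 0.116. Auxiliary subunits were lowest in F344 hyperoxia on day 6, at −0.105 and −0.154. Tandem-pore channels on day 6 were at −0.077 and −0.067 in SD hyperoxia and −0.057 and −0.099 in SD room air, against 0.062 and 0.069 in F344 hyperoxia and 0.117 and 0.095 in F344 room air, so that the strains did not overlap on that day. On day 5 they were at −0.035 and −0.069 in SD hyperoxia and −0.084 and 0.066 in SD room air, against 0.052 and 0.072 in F344 hyperoxia and −0.012 and −0.033 in F344 room air, and the room air arrays of the strains overlapped. Group means of the 5 classes spanned 0.129 to 0.216, the least for inward rectifiers, and the pooled SD between the arrays of a group was 0.029 to 0.072. The mean over all genes was −0.040 for F344 hyperoxia day 6 replicate 2 and between −0.006 and 0.011 for the other arrays. No test was made of these averages.

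Among subfamilies with several genes, Kcnt, Kcnip and Kcna spanned most. The 2 Kcnt genes spanned 0.502, with F344 room air day 6 highest. The 4 Kcnip genes spanned 0.432 and were lowest in F344 hyperoxia on day 6, at −0.280, with SD room air day 6 at 0.152. The 8 Kcna genes spanned 0.421 between −0.180 in SD hyperoxia and 0.241 in F344 room air, both on day 6. The 8 Kcnh genes were lowest in the same group as Kcna, at −0.176. The 5 Kcne genes spanned 0.1 and the 3 Kcns genes 0.110. Genes within the widest subfamilies differed in span. Kcnt2 spanned 0.84 and Kcnt1 0.21, Kcnip4 0.91 and Kcnip2 0.15, and Kcna3 1.34 and Kcna7 0.16. The pooled SD between the arrays of a group was 0.073 for Kcnt, 0.092 for Kcnip and 0.042 for Kcna.

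**Figure D5:**
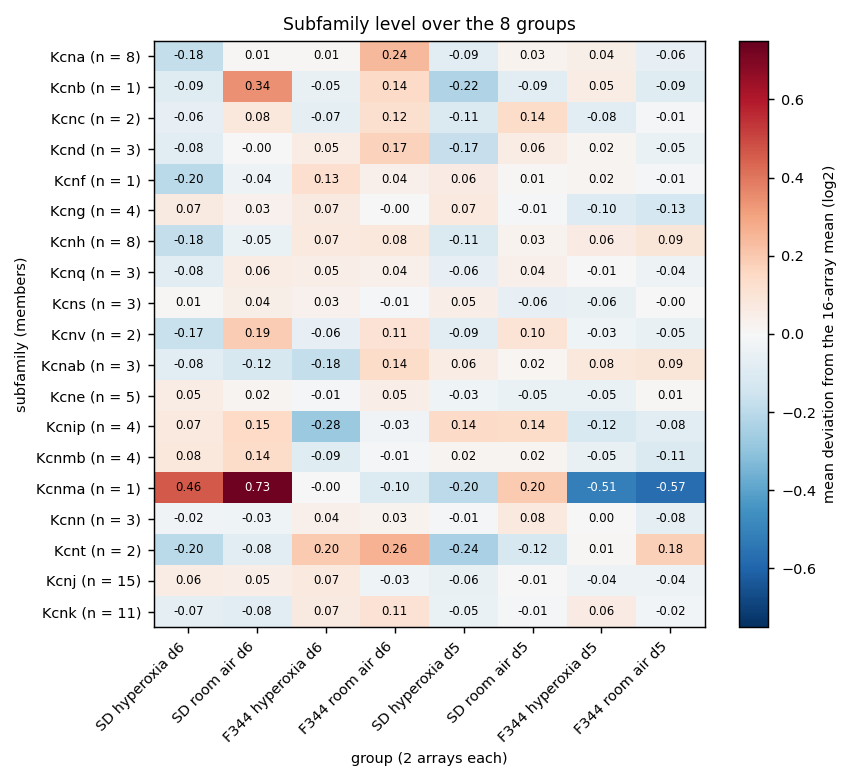
Mean deviation of each potassium channel subfamily from its 16-array mean on the log2 scale (colour and printed number) by subfamily (rows, with the number of genes) and group (columns, 2 arrays each). Kcnma, which is the single gene Kcnma1, is highest in SD on day 6 and lowest in F344 on day 5, and Kcna and Kcnh are lowest in SD hyperoxia on day 6.

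Other genes that work with these channels also gave few calls. Of 21 measured partners and potassium-handling genes, 1 fell under hyperoxia on day 6 over both strains, against 6.74% of all genes called, the median being −0.15. It was Dpp6, which speeds Kcnd channels (−0.41 ± 0.10, adjusted p = 0.0211), and it also fell in F344 alone (−0.64 ± 0.14, adjusted p = 0.0404). Dmd, the scaffold that anchors Kcnj10 in Muller glia, fell in SD on day 6 (−0.60 ± 0.15, adjusted p = 0.0458). Its day 6 means were 10.09 in SD hyperoxia and 10.69 in SD room air, against 10.14 and 10.2 in F344. The strain difference of that effect did not pass (−0.53 ± 0.21, adjusted p = 0.325). In room air Dmd was higher in SD than in F344 (0.35 ± 0.11, adjusted p = 0.049), as was Atp1b1 (0.32 ± 0.10, adjusted p = 0.0499). Slc12a5, the chloride exporter driven by potassium, was lower in SD than in F344 under hyperoxia (−0.67 ± 0.12, adjusted p = 0.00384) and higher on day 6 than on day 5 in room air (0.50 ± 0.12, adjusted p = 0.0409).

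Of 26 voltage-gated sodium and calcium channel genes, 4 fell under hyperoxia on day 6 over both strains and 0 rose, against 6.74% of all genes called, with a list median of −0.19. They included the sodium channel pore Scn8a (−0.38 ± 0.08, adjusted p = 0.0145) and the sodium channel beta subunit Scn3b (−0.52 ± 0.14, adjusted p = 0.0402). The others were the calcium channel pores Cacna1e (−0.40 ± 0.09, adjusted p = 0.0181) and Cacna1f (−0.37 ± 0.10, adjusted p = 0.0388). Under hyperoxia 4 of 26 were lower in SD than in F344, against 8.96% of all genes called, led by Scn8a (−0.43 ± 0.08, adjusted p = 0.00395). In room air Cacnb2, a calcium channel beta subunit, was higher in SD (0.73 ± 0.12, adjusted p = 0.00119). Cacna1i, a low-threshold calcium channel, was higher on day 6 under hyperoxia (0.59 ± 0.12, adjusted p = 0.00929) and in room air (0.58 ± 0.12, adjusted p = 0.0195).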

How the data were processed

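The deposited table holds log2 expression of 27342 probe sets on 16 arrays, which the authors made with Partek 6.4 and RMA, per the submitters' processing notes; scanner files were not used here. By the platform annotation, 15097 probe sets had 1 symbol, 323 several and 11922 were not listed. Where a gene had several probe sets (499 genes) the one with the highest mean was kept, leaving 14324 genes. All 83 symbols matched the RefSeq gene table of GRCr8. A mean for each group was fitted with limma 3.58.1 in R 4.3.3, using all 16 arrays (8 residual and 7.41 prior degrees of freedom), and 15 contrasts were tested, with Benjamini-Hochberg adjustment across the 14324 genes. Strain and day differences are means over both days or both strains. Errors after log2 changes are moderated standard errors, and folds are ratios of geometric means. The test was tried on simulated data, but no outcome of that trial is given here. No conclusion on the error rate of the test with so few arrays per group is therefore drawn from it. Genes named include all those called among the 83. Others came mostly from the 5 with the smallest p each way, the widest of each subfamily and 15 fixed channels, and some of these are not named. The members and lists were chosen with earlier results of these data known. Array number limits precision. Other scalings, other fits and fits with 1 array left out are described in the closing section.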

Additional observations from a re-analysis of the deposited data

How the results depend on the processing

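Of 39 calls of a gene in a comparison, 11 held in every fit with 1 array left out and under the 9 other alternatives, those of Kcna3, Kcnab3, Kcnh5, Kcnh6, Kcnma1 and Kcnt2 so described above, and 19 held under the 9 others. With 1 array left out, the calls among the 83 genes numbered 0 to 3 for the oxygen effect in SD on day 6, 0 to 8 in F344 on day 6, and 1 to 14 over both strains on day 6. The day difference of the oxygen effect had 0 to 2 in F344 and 0 to 1 over both strains. Strain differences had 5 to 16 under hyperoxia and 4 to 12 in room air, and day differences 2 to 13 under hyperoxia and 0 to 4 in room air. Quantile normalization gave 2 calls in SD on day 6. Array weights gave 2 in SD on day 6, 0 in F344 on day 6, 2 over both strains on day 6 and 10 between strains under hyperoxia. Fits of only the arrays compared gave 0 in SD and 0 in F344 on day 6, 1 over both strains on day 6 and 1 for the day difference in room air, which also had 2 with every probe set tested and 1 with a trended, robust variance. With 1 array left out, class averages moved by more than the pooled SD between replicate arrays for voltage-gated genes in F344 on day 5 (−0.01 to 0.06), auxiliary genes in F344 on day 6 (−0.22 to −0.10) and day 5 (−0.07 to 0.04), channels activated by calcium or sodium in SD on day 5 (−0.24 to −0.06), inward rectifiers in SD on day 6 (−0.06 to 0.08) and F344 on day 5 (−0.06 to 0.05), and tandem-pore channels in SD on day 5 (−0.12 to 0.03). Sign changed for Kcnip1 in SD on day 5 without SD room air day 5 replicate 1 (−0.01 to 0.31 over both such arrays) and for Kcnmb2 in F344 on day 5 without F344 room air day 5 replicate 1 (−0.84 to 0.04 over both such arrays). The cause of these shifts was not tested. Replicate numbers were not treated as pairs in the main fit. Over 28 pairs of groups the correlation of replicate differences lay between −0.287 and 0.519, with 8 above 0.1. The highest was between SD room air on day 6 and on day 5. These values do not settle whether arrays of the same replicate number belong together in some groups. With the replicate number as a block, 12 genes were called between strains under hyperoxia, 8 in room air and 3 between days in room air.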

Other observations

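A probe set annotated to both Kcnk16 and Kcnk5 was left out of the 83 genes. On day 6 it read 5.59 and 5.44 in SD hyperoxia, against 5.56 and 5.49 in SD room air, and 5.29 and 5.30 in F344 hyperoxia, against 5.36 and 5.10 in F344 room air. On day 5 it read 5.64 and 5.45 in SD hyperoxia, against 5.65 and 5.51 in SD room air, and 5.47 and 5.40 in F344 hyperoxia, against 5.54 and 5.30 in F344 room air. Each SD array was above each F344 array on day 6, and the strains overlapped on day 5.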
